A study of Homo sapiens with 6 samples.

Results

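The genes described here are 10 regulators and markers of the epithelial-to-mesenchymal transition (EMT), the program by which epithelial cells lose their junctions and take on a motile, matrix-producing state. They were chosen by name, with earlier results of these data known, and matched to the gene symbols of the count files. All 10 were found among 24462 symbols. The set comprises 7 transcription factors (*ZEB1*, *ZEB2*, *SNAI1*, *SNAI2*, *TWIST1*, *TWIST2* and *PRRX1*) and 3 mesenchymal markers (*VIM*, *CDH2* and *FN1*). Expression was profiled by QuantSeq, which counts polyadenylated RNAs by a tag near their 3′ end, in MDA-MB 231 cells, an established line from a triple-negative breast cancer of the claudin-low subtype. RNA was taken 48 h after transfection from 3 groups of 2 libraries each. The control cells received a negative control (NC) mimic, a small RNA that is not a natural miRNA. The second group received a mimic of miR-200a, for which the protocol gives 100 nM. The third group received the miR-200a mimic together with a pcDNA3.1 plasmid carrying ELK3, an ETS-family transcription factor, for which the protocol gives 30 ng. Lipofectamine 3000 is the reagent the protocol names, and the study describes its exogenous ELK3 as lacking an intact 3′UTR. The labels name no empty plasmid in the other groups, so the presence of plasmid DNA and that of ELK3 cannot be told apart. Each comparison asks how the EMT genes stood after miR-200a alone, and after miR-200a with the ELK3 plasmid.

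In EMT, transcription factors of the ZEB, SNAIL and TWIST families repress epithelial genes such as *CDH1*, which encodes the junction protein E-cadherin, while vimentin, N-cadherin and fibronectin rise. The miR-200 family is best known for restraining *ZEB1* and *ZEB2* through sites in their 3′UTRs, and both ZEB proteins in turn repress the miR-200 genes. MDA-MB 231 cells are already mesenchymal and have little E-cadherin, so EMT genes start from a mesenchymal state in the NC mimic libraries.

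The miR-200 family falls into 2 seed classes, shown here because the seed decides which 3′UTRs a miRNA can pair with. The mature sequences are from RefSeq (GRCh38.p14), written 5′ to 3′, and capitals mark the seed (bases 2 to 8).
miR-200a-3p: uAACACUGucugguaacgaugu
miR-141-3p: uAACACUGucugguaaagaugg
miR-200b-3p: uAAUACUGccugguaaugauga
miR-200c-3p: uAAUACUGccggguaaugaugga
miR-429: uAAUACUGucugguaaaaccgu
The transfected miR-200a shares its seed with miR-141, while miR-200b, miR-200c and miR-429 carry the substitution C4U, counted from the 5′ end of the miRNA.

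The DNA-sense match to the miR-200a seed is CAGTGTT, and that to the miR-200b seed is CAGTATT. Each was searched on the transcript strand of 1 annotated transcript per gene (GENCODE release 29, GRCh38). An 8mer is a match followed by A, and the other matches are 7mers. Among the 10 genes, the miR-200a match was found in the 3′UTRs of *ZEB1* and *ZEB2* alone. The *ZEB1* 3′UTR (1938 nt, in exon 9 of 9) held 3 matches, 1 of them an 8mer, and the *ZEB2* 3′UTR (5370 nt, in exon 10 of 10) held 4, all 8mers. The windows below are 29 bases long and read 5′ to 3′ on the transcript strand, with the match in capitals.
ZEB1 site 1, chr10:31528035-31528063 (+): atcatcagaatCAGTGTTtgtgattgtgt
ZEB1 site 2, chr10:31528786-31528814 (+): atttgatttaaCAGTGTTatgttaacatt
ZEB1 site 3, chr10:31529026-31529054 (+): acttctataaaCAGTGTTgggaacaatgt
ZEB2 site 1, chr2:144389226-144389254 (-): aaaattttgtaCAGTGTTaaggcctaaaa
ZEB2 site 2, chr2:144388700-144388728 (-): ccatccttgtaCAGTGTTaagagggtaac
ZEB2 site 3, chr2:144388659-144388687 (-): tgcaccagcttCAGTGTTaagctcaccct
ZEB2 site 4, chr2:144387609-144387637 (-): cagctattattCAGTGTTatttataatat
A single match of this length is common. At least 1 was found in 19.7% of the 11172 annotated 3′UTRs of tested genes. The share was 24.97% of the 1470 whose length was within 20% of that of *ZEB1*. It was 53.3% of the 672 whose length was within 20% of that of *ZEB2*. The shares with several matches, or with 8mers, were not counted, so they cannot be set beside the 3 and 4 matches of the ZEB genes. The miR-200b match, which the transfected miRNA does not share, was found 5 times in each ZEB 3′UTR, 2 times in *FN1* and 1 time in *SNAI2*, against 17.9% of all 3′UTRs. Upstream of the 3′UTR, the miR-200a match was found 4 times in *ZEB1*, 3 times in *ZEB2* and 1 time in *FN1*, and in none of the other 7 transcripts. Neither match was found in the 3′UTRs of *SNAI1*, *TWIST1*, *TWIST2*, *PRRX1*, *VIM* or *CDH2*.

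**Figure D1:**
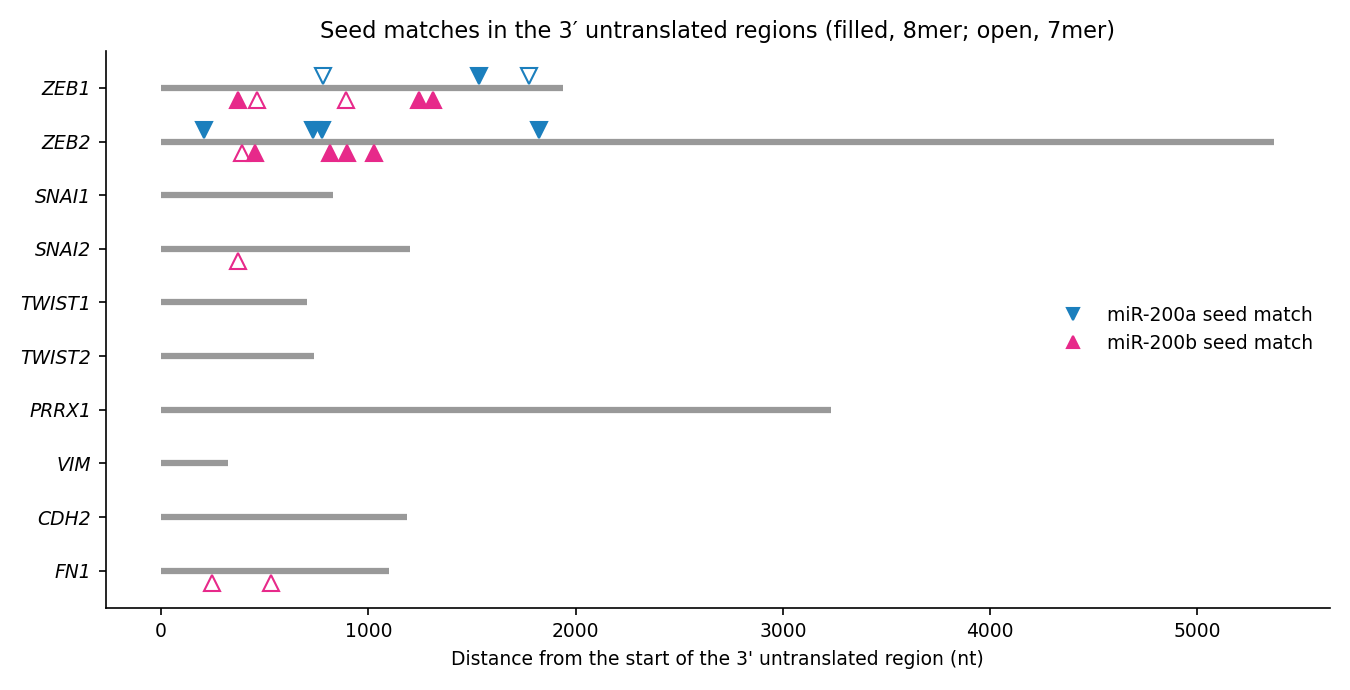
Positions of miR-200 seed matches along the 3′UTR of each of the 10 EMT genes, with distance from the start of the 3′UTR (nt) on the horizontal axis and a grey bar for the 3′UTR. Blue triangles mark miR-200a matches and pink triangles miR-200b matches, filled for 8mers and open for 7mers. Blue marks lie only on ZEB1 (3) and ZEB2 (4).

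Total counts per library ranged from 3055915 to 4868004. At this depth 3 counts, taken as the smallest detectable value, corresponded to 0.611 to 0.979 CPM (counts per 1000000 counts of the library, scaled by the TMM method), which covers counting error only. *ELK3* itself stood at 138 and 166 CPM in the NC mimic libraries, 102 and 103 CPM in the miR-200a libraries, and 96.2 and 79.2 CPM in the pair labelled as carrying the plasmid. The labelled plasmid therefore did not show as a higher *ELK3* count, and *ELK3* was 1.73-fold lower in those libraries than in the NC mimic libraries (log2 fold change −0.79, adjusted p = 0.0117, edgeR quasi-likelihood test). A 3′ tag reads the end of the RNA, so RNA from a plasmid without the ELK3 3′UTR may not be counted. This value may therefore check the endogenous transcript alone. By qRT-PCR and western blot, the study reports *ELK3* mRNA and protein back at the control level in cells given both miR-200a and the plasmid. That group, labelled miR-200a plus ELK3, is therefore named by its label, as the ELK3-labelled libraries. The cell line label was checked with marker lists. All 8 claudin-low markers were tested, with a summed level of 3194 to 3653 CPM over the libraries. Of 12 luminal markers 5 were tested and 3 had no count in any library, and the luminal sum was 120 to 170 CPM. In the NC mimic libraries the luminal marker *KRT19* stood at 57.7 and 46.7 CPM. The claudin gene *CLDN4*, on neither list, stood at 179 and 192 CPM there, so these lists do not settle the subtype. The ELK3-labelled libraries differed more from each other (root mean square difference of 0.515 in log2 CPM) than the NC mimic pair (0.358) or the miR-200a pair (0.307), and replicate 2 of that group lay farthest from the other groups, at 0.661 to 0.713. The labels do not say that replicates came from separate cultures, so p-values measure only the spread between these libraries, which may be technical. In bulk RNA, fewer cells of a kind and less RNA per cell cannot be told apart.

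Of the 10 genes, 6 had enough counts to be tested (*ZEB1*, *ZEB2*, *SNAI1*, *SNAI2*, *VIM* and *FN1*), among 12650 tested genes in all. A gene was called at a Benjamini-Hochberg adjusted p under 0.05 over all 12650, with 1 model over the 6 libraries. After miR-200a alone, 0 of the 6 tested EMT genes were called, although 3 (*ZEB1*, *ZEB2* and *FN1*) had an unadjusted p under 0.05. The same held for 1169 of the 12650 tested genes. In the ELK3-labelled libraries, *SNAI1*, *SNAI2* and *FN1* fell against both other groups, while *ZEB1* and *ZEB2* were not called against either. None of the 6 was called higher in any of the 3 comparisons. The 2 comparisons that use the ELK3-labelled libraries share those libraries, and each also shares a reference group with the comparison of miR-200a and NC mimic, so they are not independent.

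**Figure D2:**
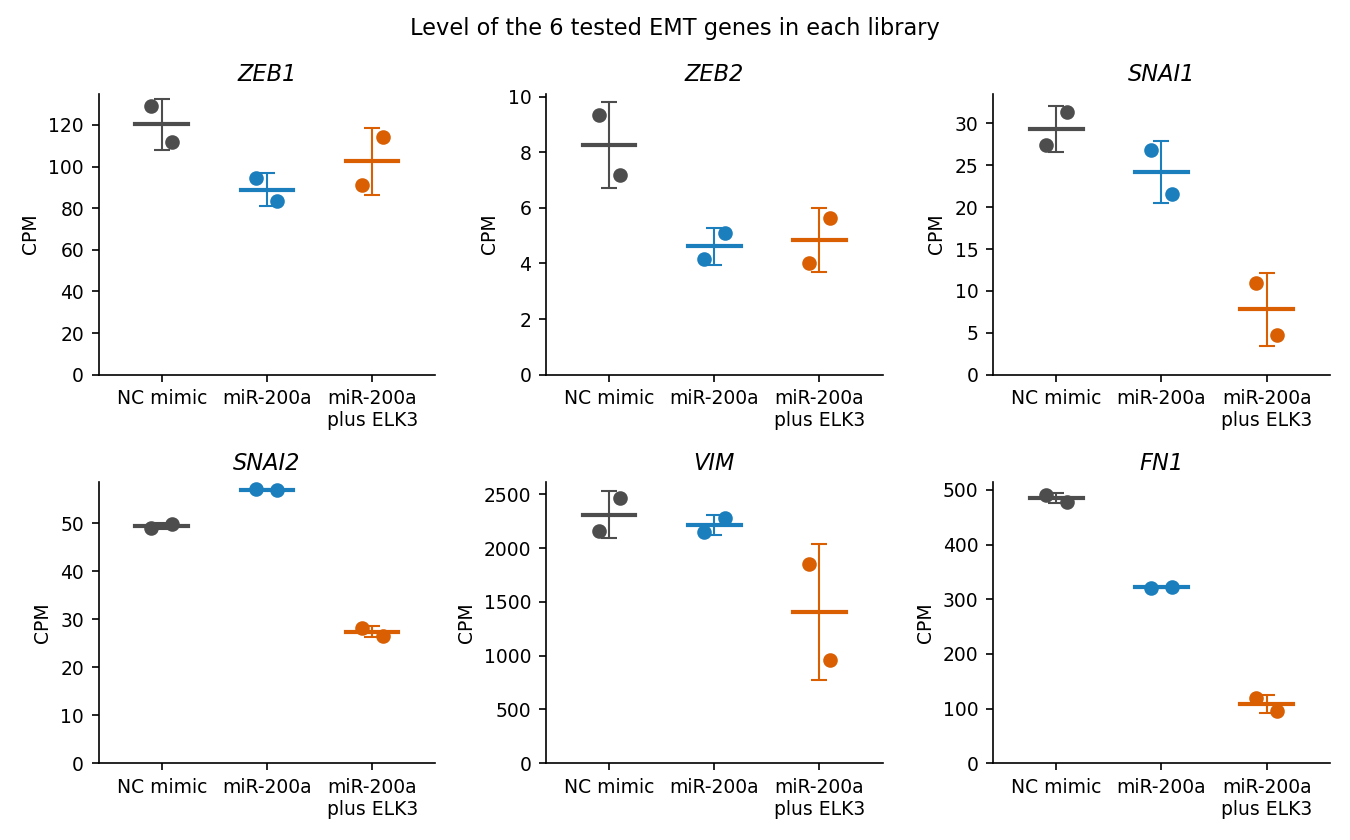
Level of the 6 tested EMT genes in CPM (vertical axes, each starting at 0) in the 3 groups. Points are the 2 libraries of a group, the thick line is their mean and the error bar is 1 SD. FN1 stands at 478 to 491 CPM with the NC mimic, at 321 to 322 with miR-200a and at 96.4 to 119 in the ELK3-labelled libraries, while the 2 ELK3-labelled libraries lie far apart for VIM (1854 and 956).

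The ZEB factors, zinc-finger repressors that bind E-boxes of epithelial promoters, are taken first because they alone carry the miR-200a match in the 3′UTR. *ZEB1* (chr10:31318495-31529814, plus strand) stood at 129 and 112 CPM in the NC mimic libraries, 94.5 and 83.3 CPM in the miR-200a libraries, and 91.2 and 114 CPM in the ELK3-labelled libraries. Both miR-200a libraries were below both NC mimic libraries, and the ELK3-labelled libraries overlapped with each of the other groups. The group means were 120.3 ± 12.3, 88.9 ± 7.87 and 102.6 ± 16.1 CPM (SD, n = 2 each). The log2 fold change of *ZEB1* was −0.44 (SE 0.16) after miR-200a against NC mimic, with an unadjusted p of 0.0202 and an adjusted p of 0.426 in the edgeR test. With only those 2 groups in the model, in which 7.90% of all tested genes were called, *ZEB1* was called (log2 fold change −0.43, edgeR adjusted p = 0.00618). The *ZEB1* call here thus rests on whether the ELK3-labelled libraries add to the estimate of the spread. By qRT-PCR, the study reports that *ZEB1* mRNA fell after miR-200a and that added *ELK3* did not restore it. Between the ELK3-labelled libraries and miR-200a alone, the difference in *ZEB1* was 0.21 (SE 0.16, adjusted p = 0.414). Against the NC mimic it was −0.23 (SE 0.16, adjusted p = 0.358). Both of these differences moved with single libraries. Without replicate 1 of the ELK3-labelled group the difference in *ZEB1* from miR-200a alone was 0.36. Without replicate 2 the difference from the NC mimic was −0.43. With 1 labelled library left its own spread no longer enters, so no call is read from these fits.

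*ZEB2* (chr2:144364364-144524583, minus strand), the second ZEB repressor and the one with 4 matches, had few counts. The NC mimic libraries held 42 and 22 of its tags, the miR-200a libraries 20 and 25, and the ELK3-labelled libraries 17 and 24. In CPM these were 9.35 and 7.18, then 4.15 and 5.09, then 4.03 and 5.64. All 4 libraries that received the miR-200a mimic were below both NC mimic libraries, and those 4 overlapped among themselves. The log2 fold change of *ZEB2* was −0.85 (SE 0.35) for miR-200a against NC mimic, a level 1.80-fold lower, with an unadjusted p of 0.0368 and an adjusted p of 0.511. For the ELK3-labelled libraries it was −0.79 against NC mimic (SE 0.36, adjusted p = 0.168) and 0.06 against miR-200a (SE 0.37, adjusted p = 0.928). The difference after miR-200a thus passed the threshold before and not after adjustment over all tested genes, and by the criteria of the study's methods, which use the unadjusted p, *ZEB2* was called.

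The SNAIL factors, zinc-finger repressors that also bind E-boxes, were the transcription factors of the set that were called. *SNAI1* (chr20:49982999-49988886, plus strand), which encodes SNAIL, a short-lived repressor of *CDH1*, stood at 27.4 and 31.3 CPM in the NC mimic libraries, 26.8 and 21.6 CPM in the miR-200a libraries, and 10.9 and 4.70 CPM in the ELK3-labelled libraries. Both ELK3-labelled libraries were below all 4 others, and replicate 2 was the lowest. The group means were 29.4 ± 2.78, 24.2 ± 3.67 and 7.80 ± 4.38 CPM (SD, n = 2 each). *SNAI1* was 3.097-fold lower in the ELK3-labelled libraries than with miR-200a alone (log2 fold change −1.63, SE 0.33, edgeR adjusted p = 0.0145) and 3.75-fold lower than with the NC mimic (−1.91, SE 0.33, adjusted p = 0.00748). Its size rested in part on replicate 2: without that library the log2 fold changes were −1.19 and −1.45, and without replicate 1 they were −2.35 and −2.61. The call against miR-200a was also lost with either miR-200a library left out (adjusted p = 0.145 and 0.0995), with only the 2 groups in the model (0.0511) and with limma (0.0757). The call against NC mimic was lost with either NC mimic library left out (adjusted p = 0.0743 and 0.103) and with limma (0.053). After miR-200a alone the log2 fold change of *SNAI1* was −0.27 (SE 0.29, adjusted p = 0.848), and the 2 groups were separated by less than 1 CPM at their closest.

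*SNAI2* (chr8:48917604-48921740, minus strand), which encodes SLUG and is often linked to basal and mesenchymal breast cells, stood at 49.0 and 49.9 CPM in the NC mimic libraries, 57.1 and 57.1 CPM in the miR-200a libraries, and 28.2 and 26.6 CPM in the ELK3-labelled libraries. The 3 groups did not overlap, and the ELK3-labelled libraries were the lowest. *SNAI2* was 2.08-fold lower in the ELK3-labelled libraries than with miR-200a alone (log2 fold change −1.06, SE 0.16, edgeR adjusted p = 0.00446) and 1.81-fold lower than with the NC mimic (−0.85, SE 0.16, adjusted p = 0.0108). Unlike *SNAI1*, it had nearly the same value without either ELK3-labelled library, at −1.06 to −1.10 against miR-200a and −0.84 to −0.87 against NC mimic. Its call was lost with either library of the reference group left out, with adjusted p of 0.0891 and 0.082 against miR-200a and of 0.105 and 0.118 against NC mimic. After miR-200a alone the difference in *SNAI2* was 0.21 (SE 0.15, adjusted p = 0.750). This was the only positive value among the 6 tested EMT genes in that comparison, and it did not pass the test.

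The other transcription factors of the set were at or near the limit of detection. *TWIST1* and *TWIST2*, which encode basic helix-loop-helix factors that induce EMT during mesoderm development, had 0 counts in all 6 libraries, which allows up to 3 counts, or 0.611 to 0.979 CPM, per library. *PRRX1*, which encodes a homeobox factor of mesenchymal tissues, had 2 counts in each NC mimic library, 0 and 2 after miR-200a, and 1 and 0 in the ELK3-labelled libraries. No library was above the limit for these 3 genes, so no fold change was computed. *CDH2*, which encodes N-cadherin, the cadherin that takes the place of E-cadherin in the classical switch, had 8 and 8 counts, then 8 and 2, then 5 and 5, and did not pass the filter on low counts. All 4 genes were thus too sparse to compare between the groups.

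Of the mesenchymal markers, *FN1* and *VIM* could be tested. *FN1* (chr2:215360440-215436172, minus strand), which encodes fibronectin, a matrix glycoprotein that cells bind through integrins, stood at 491 and 478 CPM in the NC mimic libraries, 321 and 322 CPM in the miR-200a libraries, and 119 and 96.4 CPM in the ELK3-labelled libraries. The 3 groups did not overlap, with the NC mimic highest, miR-200a between, and the ELK3-labelled libraries lowest. *FN1* was 2.98-fold lower in the ELK3-labelled libraries than with miR-200a alone (log2 fold change −1.58, SE 0.13, edgeR adjusted p = 0.000288) and 4.49-fold lower than with the NC mimic (−2.17, SE 0.14, adjusted p = 4.33e-05). Of the 6 tested genes it alone was called in 13 of 13 alternative analyses in both of these comparisons, with log2 fold changes of −1.47 to −1.74 and −2.05 to −2.31. After miR-200a alone *FN1* was 1.51-fold lower than with the NC mimic (−0.59, SE 0.13), with an unadjusted p of 0.000912 and an adjusted p of 0.115. As for *ZEB1*, that difference was called with only those 2 groups in the model (log2 fold change −0.57, edgeR adjusted p = 9.97e-08), and also without a low-count filter (0.011).

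*VIM* (chr10:17228259-17237593, plus strand), which encodes vimentin, the intermediate filament protein of mesenchymal cells, stood at 2158 and 2463 CPM in the NC mimic libraries, 2149 and 2278 CPM in the miR-200a libraries, and 1854 and 956 CPM in the ELK3-labelled libraries. The first 2 groups overlapped, and both ELK3-labelled libraries were below them, replicate 2 by far the lower. The group means were 2310.0 ± 216, 2214 ± 90.9 and 1405 ± 635 CPM (SD, n = 2 each). The log2 fold change of *VIM* was −0.66 (SE 0.24, adjusted p = 0.0918) for the ELK3-labelled libraries against miR-200a and −0.72 (SE 0.24, adjusted p = 0.0722) against NC mimic, and neither passed the edgeR test. Replicate 2 set the size of these values. Without it they were −0.30 and −0.34, and without replicate 1 they were −1.21 and −1.25. With 1 labelled library left its own spread no longer enters and it is assumed to vary like the other groups. No call is therefore read from these fits. With all 6 libraries, *VIM* was called by DESeq2 (adjusted p = 0.0407 and 0.0251), by edgeR without a low-count filter (3.37e-07 and 4.77e-08) and by the criteria of the study's methods. After miR-200a alone the difference was −0.06 (SE 0.23, adjusted p = 0.973).

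**Figure D3:**
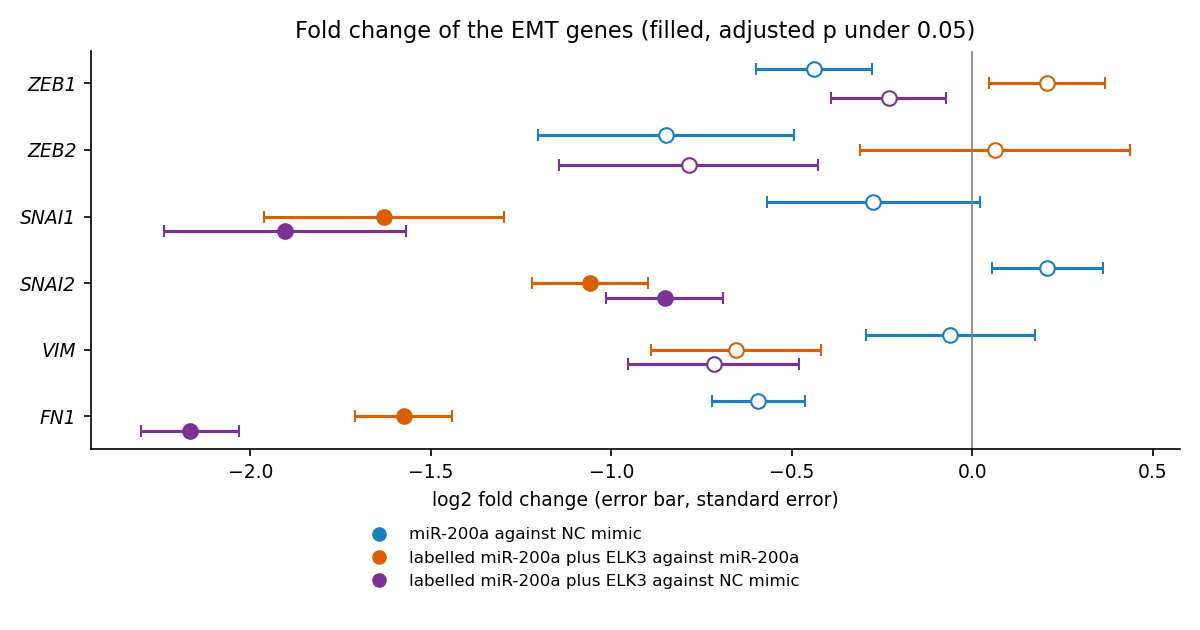
Log2 fold change (horizontal axis) of the 6 tested EMT genes in the 3 comparisons, with the standard error as bars. Filled points passed an adjusted p of 0.05 in edgeR's quasi-likelihood test and open points did not. The filled points are SNAI1 (−1.63 and −1.91), SNAI2 (−1.06 and −0.85) and FN1 (−1.58 and −2.17), each in both comparisons of the ELK3-labelled libraries.

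Read against all tested genes, the 0 of 6 calls after miR-200a alone stand beside a background of 34 called genes (0.269%), of which 27 were higher (0.213%) and 7 lower (0.0553%). DESeq2 also called 0 of the 6. Both miR-200a libraries were below both NC mimic libraries for 4 of the 6 (*ZEB1*, *ZEB2*, *SNAI1* and *FN1*), against 26.1% of all tested genes, and the median log2 fold change of the 6 was −0.36 against −0.02 over all genes. In the ELK3-labelled libraries against miR-200a, 3 of 6 were called lower, against 748 genes lower (5.91%) and 889 higher (7.03%), or 12.9% in all. Both labelled libraries were below both miR-200a libraries for 4 of the 6 (*SNAI1*, *SNAI2*, *VIM* and *FN1*), against 28.0% of all genes, with medians of −0.86 for the 6 and 0.02 for all. Against NC mimic, 3 of 6 were again called lower, where 753 genes were lower (5.95%) and 876 higher (6.92%), or 12.9% in all. There 5 of the 6, all but *ZEB1*, were below both NC mimic libraries, against 27.6% of all genes, with medians of −0.82 and 0.01. When each comparison was fitted on its own 2 groups, the numbers of tested EMT genes called were 2, 2 and 3, against 7.90%, 4.58% and 4.73% of all genes. The balance of directions over all genes moved with the scaling: 54.3% and 53.8% of the calls in the ELK3-labelled comparisons were higher, but 41.4% and 42.9% with upper-quartile scaling and 23.4% and 42.2% with limma on quantile-normalized values. The directions of *SNAI1*, *SNAI2*, *FN1* and *VIM* in those comparisons were the same under each scaling. Because the genes were chosen with earlier results of these data known, the shares over all genes describe them and test nothing.

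Of 19 other transcription factors linked to EMT, 11 were tested, and after miR-200a 0 of them were called in either direction. In the ELK3-labelled libraries, 1 rose against miR-200a and 3 rose against NC mimic, and 0 fell, where 7.03% and 6.92% of all tested genes were called higher. A count of 1 of 11 is near that share. *ZNF703*, which encodes a corepressor amplified in some luminal breast tumours, was at 28.3 and 21.2 CPM with the NC mimic, 32.8 and 33.8 CPM with miR-200a, and 51.6 and 83.7 CPM in the ELK3-labelled libraries. It rose by 1.02 (SE 0.24, adjusted p = 0.0224) and 1.44 (SE 0.25, adjusted p = 0.00694) on the log2 scale against the 2 groups. *HMGA2*, an architectural chromatin protein that can induce *SNAI1*, rose by 0.60 against NC mimic (adjusted p = 0.0276). The forkhead factor *FOXQ1* rose by 0.94 against NC mimic (adjusted p = 0.0321), although its miR-200a libraries (24.9 and 26.7 CPM) were already near the ELK3-labelled libraries (27.9 and 27.3 CPM). The median log2 fold change of the 11 was 0.13, 0.10 and 0.30 in the 3 comparisons.

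Because ZEB and SNAIL proteins act through corepressors and are cleared quickly by the proteasome, genes of both kinds were listed. Of 18 corepressor genes all 18 were tested, and 0 were called after miR-200a. Against miR-200a, 3 rose in the ELK3-labelled libraries and 0 fell: *SFMBT1*, a SNAI1 partner, by 1.12 (adjusted p = 0.0225), *EZH2*, the histone methyltransferase of Polycomb complex PRC2, by 0.58 (adjusted p = 0.0331), and *CHD4*, the remodelling ATPase of the NuRD complex, by 0.51 (adjusted p = 0.0497). Against NC mimic, *CHD4* and *SFMBT1* rose again, by 0.59 and 0.92 (adjusted p = 0.0313 and 0.0443). *SFMBT1* stood at 44.3 and 78.7 CPM in the ELK3-labelled libraries, so its 2 libraries differed more from each other than the other groups did (34.5 and 30.3, then 25.3 and 31.4 CPM). These counts, 3 and 2 of 18, stand beside the 7.03% and 6.92% of all tested genes called higher and the 12.9% called in either direction. Of 18 genes for kinases, ubiquitin ligases and deubiquitinases that act on SNAIL or ZEB proteins, 14 were tested, and *CSNK1E* alone was called, which is near the 5.91% and 5.95% of all tested genes called lower. This casein kinase gene fell by 0.72 against miR-200a (adjusted p = 0.0181) and by 0.94 against NC mimic (adjusted p = 0.00632), from 119 and 106 CPM with the NC mimic to 98.4 and 94.95 CPM with miR-200a and 65.4 and 51.9 CPM in the ELK3-labelled libraries. With either library of the reference group left out, 0 corepressor genes were called in either ELK3-labelled comparison.

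Other mesenchymal and matrix genes that were called were all lower in the ELK3-labelled libraries. Of 40 listed, 24 were tested and 7 had no count in any library. After miR-200a alone 0 of the 24 were called by edgeR (3 had an unadjusted p under 0.05, and DESeq2 called 1), with a median log2 fold change of 0.03. Among all 12650 tested genes, 1169 had an unadjusted p under 0.05 and DESeq2 called 88. Against miR-200a, 11 fell in the ELK3-labelled libraries and 0 rose, with a median of −0.63. Against NC mimic 10 fell and 0 rose, with a median of −0.61. By sign alone, 3 and 4 of the 24 were positive. Over all tested genes, 5.91% and 5.95% were called lower in these comparisons, and the medians were 0.02 and 0.01. The lysyl oxidase gene *LOX*, whose product crosslinks collagen, was at 90.4 and 109 CPM with the NC mimic, 85.5 and 87.8 CPM with miR-200a, and 35.05 and 19.98 CPM in the ELK3-labelled libraries. It fell by 1.66 against miR-200a (adjusted p = 0.00348) and fell by 1.85 against NC mimic (adjusted p = 0.00161) on the log2 scale. The collagen gene *COL5A1* fell by 1.14 against miR-200a (adjusted p = 0.00236), from 142 and 142 CPM to 59.9 and 69.3 CPM. *TGFBI*, a matrix protein induced by TGF-beta, fell by 1.09 against miR-200a (adjusted p = 0.00257), from 268 and 266 CPM to 110 and 140 CPM.

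Against NC mimic the lowest adjusted p on this list belonged to *LOXL2*, a second lysyl oxidase, which fell by 1.13 (adjusted p = 0.00071). Its 3 groups did not overlap, with 320 and 330 CPM in the NC mimic libraries, 213 and 217 CPM in the miR-200a libraries, and 152 and 145 CPM in the ELK3-labelled libraries. The counts on this list depended on the reference libraries. With either miR-200a library left out, 0 of the 24 were called against miR-200a, and with either NC mimic library left out 2 and 1 were called against NC mimic. With either ELK3-labelled library left out the counts on this list were higher, and so was the number called over all tested genes.

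Epithelial genes were also listed, and whether their levels follow the ZEB and SNAIL factors was not tested. The list includes known targets of ZEB and SNAIL repressors. *CDH1*, their classical target, was nearly absent from the NC mimic libraries (1 and 0 counts), reached 11 and 12 counts after miR-200a, and had 3 counts in each ELK3-labelled library. Only the miR-200a libraries were above the limit of 3 counts. After miR-200a, *CDH1* was at least 2.87-fold higher than its NC mimic level, and it was at least 3.34-fold lower in the ELK3-labelled libraries than with miR-200a, taking the lower group at the limit of 3 counts in each library. Neither difference passed the edgeR test (adjusted p = 0.152 and 0.108). By qRT-PCR, the study reports *CDH1* as regulated by miR-200a and *ELK3*.

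Of 43 listed epithelial genes 27 were tested. After miR-200a, 4 rose and 0 fell, with a median log2 fold change of 0.53. Over all tested genes, 0.213% were called higher and 0.0553% lower. *MPZL2*, an epithelial adhesion gene, went from 32.5 and 30.7 CPM to 141 and 141 CPM and rose by 2.15 (SE 0.16, adjusted p = 0.000582). *SPINT2*, an inhibitor of cell-surface proteases, rose by 2.21 (adjusted p = 0.0107), from 12.7 and 16.6 CPM to 66.2 and 67.65 CPM. *MAL2*, of apical membrane transport, rose by 3.54 (adjusted p = 0.0185) from 1.56 and 0.653 CPM, where counts were close to the limit, to 11.4 and 16.7 CPM. *PKP3*, a plakophilin of desmosomes, was the remaining call (1.54, adjusted p = 0.0343). Fewer epithelial genes were called with any library of either group left out, and more with either ELK3-labelled library left out. The number called over all tested genes moved the same way.

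Against miR-200a the ELK3-labelled libraries had 8 of the 27 epithelial genes lower and 1 higher, with a median of −0.48. Over all tested genes, 5.91% were called lower and 7.03% higher. The tight-junction gene *F11R* fell by 1.22 (adjusted p = 0.00323), to 29.8 and 29.4 CPM from 74.7 and 63.6 CPM. *SPINT2* fell by 1.65 (adjusted p = 0.00412), to 26.8 and 15.75 CPM, and *MPZL2* fell by 0.94 (adjusted p = 0.00499), to 79.6 and 67.2 CPM. *KRT18*, a simple-epithelial keratin, rose by 0.52 (adjusted p = 0.0385). Against NC mimic, 5 were higher and 2 lower, where 6.92% of all tested genes were called higher and 5.95% lower. A count of 2 of 27 is near the share called lower. *MPZL2* (1.21, adjusted p = 0.00192), *PKP3* (1.71, adjusted p = 0.00262) and *KRT18* (0.69, adjusted p = 0.0146) rose. The claudin genes *CLDN1* (−1.40, adjusted p = 0.00633) and *CLDN7* (−0.88, adjusted p = 0.0191) fell. The median was 0.38, or 0.23 with *CDH1*, at the limit in both groups, left out. With either miR-200a library left out 0 epithelial genes were called against miR-200a, and with an NC mimic library left out 1 and 0 were called against NC mimic.

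**Figure D4:**
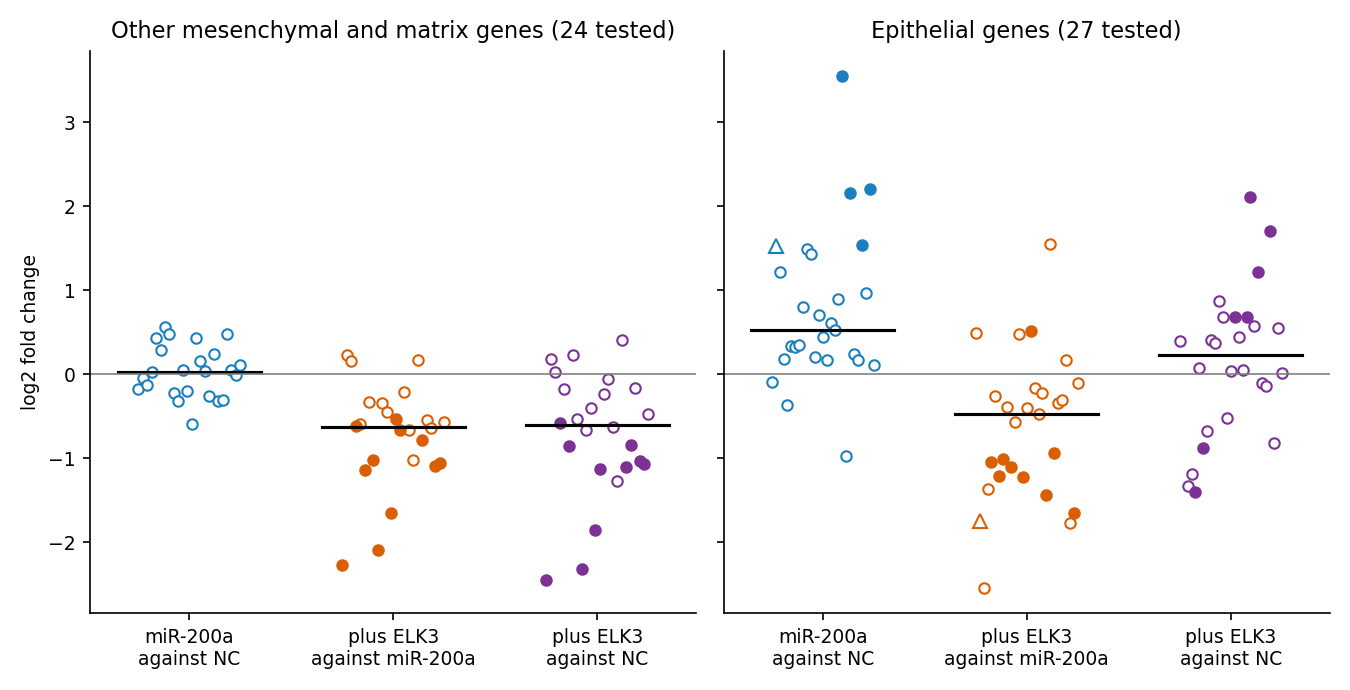
Log2 fold change (vertical axis) of 24 other mesenchymal and matrix genes and of 27 epithelial genes in the 3 comparisons, where "plus ELK3" stands for the ELK3-labelled group. Each point is a gene, filled where it passed an adjusted p of 0.05 in edgeR's test, and the black line is the median. Triangles show CDH1 at its bound, and it is left out of the last column. The mesenchymal medians are 0.03, −0.63 and −0.61 and the epithelial medians 0.53, −0.48 and 0.23.

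*SNAI1*, *SNAI2*, *FN1* and the called genes of the other mesenchymal list were lower in the same 2 libraries, the replicate pair that differed most. The *ELK3* count was not higher in these libraries, although a 3′ tag may not count RNA from the plasmid. These libraries also stood outside the others in other properties: the 10 most counted genes took 5.21% and 5.62% of the counts (5.81% to 6.48% in the other 4), and ribosomal protein genes took 8.71% and 9.66% (8.54% to 9.22% in the other 4), where replicate 2 alone was outside. The summed level of the claudin-low markers was 3194 and 3285 CPM against 3419 to 3653 CPM, and *CD44*, a surface marker of mesenchymal breast cells, was the only 1 of these 8 markers that was called (−0.61 and −0.58, adjusted p = 0.0151 and 0.0181). The part of these differences in the values of the EMT genes was not tested. For counting, antisense genes overlap 3 of the tested genes, but with few counts (*ZEB1-AS1* 11 to 46, *ZEB2-AS1* 0 to 1, *VIM-AS1* 19 to 39), and none covers the 3′ end of its partner. Whether the counting used strand is not given in the sources used here.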

How the data were processed

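RNA of MDA-MB 231 cells was profiled by QuantSeq 3′ mRNA sequencing in 6 libraries, 2 per group, grouped by the treatment labels. The authors deposited raw counts of reads per gene symbol for each library, without normalization. The submitters' processing notes name Bowtie2, edgeR and hg19, and the study's methods name ExDEGA. The counting program, its strand setting and the annotation are not given in the sources used here. The files hold 25737 lines and 24462 symbols, and the 286 symbols on several lines were summed. Total counts were 3055915 to 4868004 per library. Replicate pairs were compared with counting noise by a chi-square over genes with at least 20 counts in the pair; chi-square per degree of freedom was 1.90 to 14.1, so no pair was treated as 1 library.

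The groups were compared with edgeR 4.0.16 under R 4.3.3. Low genes were removed by filterByExpr at a minimum count of 10, which left 12650, libraries were scaled by TMM, and the two-sided quasi-likelihood test was run on a model with 3 residual degrees of freedom. CPM values are per 1000000 counts of the TMM-scaled library, so levels of single genes are compared between libraries and not between genes. The summed levels of the claudin-low and luminal marker lists are sums over different genes that serve only as a check of the cell line label. Log2 fold changes are edgeR's, and p-values were adjusted by Benjamini-Hochberg over all tested genes. The model was tested on simulated data first. That simulation gave all groups the same spread for each gene, so it did not check groups of unequal spread such as these. The alternatives were DESeq2 1.42.0, upper-quartile scaling, no low-count filter, at least 10 counts in each library, only the 2 compared groups in the model, a replicate block, limma 3.58.1 on quantile-normalized log2(count + 1), the criteria of the study's methods (unadjusted p under 0.05, fold change above 1.5 and mean log2 normalized count above 3), and each library left out in turn.

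Gene positions, 3′UTRs and seed matches came from GENCODE release 29 on GRCh38, which is not the build named by the submitters; the files carry no coordinates. Matches were counted in the principal protein-coding transcript. For 1478 tested symbols no 3′UTR was found, a number that also takes in any symbols without such a transcript in that release. Mature miRNAs came from RefSeq.

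The 10 EMT genes and the gene lists were chosen with earlier results of these data known. From each other list the text names up to 3 rising and 3 falling genes per comparison with the lowest adjusted p, among called genes whose groups did not overlap, as well as *CDH1* and *ELK3*. A gene that this rule picks is not reported here. *CD44* and *PKP3* after miR-200a were named after their values were seen.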

Additional observations from a re-analysis of the deposited data

How the results depend on the processing

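For miR-200a against NC mimic the number of genes called was 34, and became 88 with DESeq2, 230 without a low-count filter, 999 with only the 2 groups in the model, 4 with limma, 578 by the criteria of the study's methods and 0 to 1001 with a library left out. Of the EMT genes 0 were called, but 1 (*FN1*) without the filter, 2 (*FN1* and *ZEB1*) in the 2-group model, 2 (*FN1* and *ZEB2*) by the study's criteria, and 0 to 2 with a library left out. For the ELK3-labelled libraries against miR-200a, 1637 genes became 2490 without the filter, 579 in the 2-group model, 107 with limma and 39 to 4730 with a library left out, and the 3 EMT genes became 1 to 5. Against NC mimic, 1629 became 2525 without the filter, 598 in the 2-group model, 391 with limma, 2455 by the study's criteria and 90 to 4721 with a library left out, and the 3 EMT genes became 1 to 5. Calls were fewest without a library of the reference group and most without an ELK3-labelled library. *FN1* was called under each of these in both ELK3-labelled comparisons. Signs changed only for differences near 0: *VIM* after miR-200a (−0.06) was 0.014 with limma and −0.154 to 0.037 with a library left out, and against miR-200a *ZEB2* (0.06) was −0.0033 with upper-quartile scaling and −0.24 to 0.29 with a library left out, and *ZEB1* (0.21) was −0.0062 to 0.36.

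With the replicate number as a replicate block, 13, 1157 and 1170 genes were called in the 3 comparisons and 0, 3 and 3 EMT genes. The numbers are not known to pair libraries, and deviations of same-numbered libraries correlated at −0.00215, −0.0370 and −0.116 over 12650 genes. A block with the numbers of the ELK3-labelled group crossed, chosen after seeing the data, called 22, 1644 and 1661 genes and 0, 4 and 4 EMT genes, *VIM* being the added gene. With 2 libraries per group the spread rests on 3 residual degrees of freedom, and depth limits what can be said of *CDH2*, *PRRX1*, *TWIST1*, *TWIST2* and *CDH1*.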
